A study of Homo sapiens with 4 samples.

Results

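The genes of 41 chromosome stretches lay, as groups, above or below the rest of the genome on the 2 arrays labelled GALNT3/T6 KO. For this, autosomes were cut into windows of 10 Mb from position 1 of each chromosome, with positions on genome build hg19 as the file headers give it. M is the log2 ratio of KO over Ctrl signal after background subtraction, minus the array median over the probes used, averaged over these 2 arrays. A probe was used if Cy5, Cy3 or both were well above background on each of these arrays. Of 282 windows with 20 or more probes, 16 had a median M of at least 0.25 and are called raised, and 25 had a median M of at most -0.25 and are called lowered. The windows were therefore selected on measured values, and everything on the arrays labelled GALNT3/T6 KO is a description without a test. The 41 windows hold 5080 of 35904 probes and 3648 of 27198 genes measured. By construction, 5.67% of all counted windows were raised and 8.87% lowered.

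A2780s is an established human epithelial ovarian cancer cell line. Clones in which GALNT3 was disrupted with CRISPR/Cas9 gave the GALNT3 KO group, and shRNA against GALNT6 in such clones gave the GALNT3/T6 KO group, with 2 clones and 2 arrays in each. RNA of each KO clone, in Cy5, was hybridized together with RNA of a mock-transfected A2780s clone (Ctrl), in Cy3, and no dye was swapped. Each array holds a single clone, so a group value cannot be told apart from the history of its clones, and in the GALNT3/T6 KO group the viral transduction and puromycin selection for the shRNA go with the group as well.

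Both enzymes start mucin-type O-glycosylation by placing GalNAc on serine or threonine. Genes along a chromosome are mostly regulated one by one, so the median over a long stretch usually stays near that of the genome. Neighbouring genes can also share a level of expression over a long stretch, through the chromatin domain they lie in or through the number of copies of that stretch, and carcinomas are known for gains and losses of such stretches. These arrays measured RNA, and DNA copy number was not measured.

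The targeted genes were read first. GALNT3 has a single probe, at chr2:166604416-166604475, outside the shifted windows. The arrays labelled GALNT3/T6 KO read 4.80 and 5.08 for it as log2 ratios. The label says loss of GALNT3, and this RNA reading goes the other way. It comes from a single probe, and whether that probe lies in the disrupted part was not tested. The paper checked its clones for loss of the protein by Western blot. The group therefore carries only its label as a name here. On the GALNT3 KO arrays the probe was well above background in 0 of 4 channels and checks nothing there. GALNT6, at chr12:51747906-51747965, read -0.66 and -0.69 on those arrays, and -0.47 and -0.38 in GALNT3 KO. Per channel, between 86.9% and 93.8% of non-control spots passed Agilent's background test, and 0 were saturated. Of 11 markers of epithelial ovarian carcinoma cells, 10 were well above background in the Ctrl channel of all 4 arrays. KRT7 was so in 3. Of 5 markers of blood, endothelial, fibroblast and smooth muscle cells, PTPRC, CD3E, COL1A1 and ACTA2 were as well, and PECAM1 had no probe that passed. For some genes the Ctrl channel differed between the groups of arrays. KRT8, for example, had Ctrl log2 signals of 10.76 and 10.94 beside GALNT3 KO, and of 13.54 and 13.95 beside the clones labelled GALNT3/T6 KO. Of genes named below, CD44 had 7.98 and 7.75, and 9.86 and 10.30, in the same order. DKK3, ADM, PERP and GPNMB also had higher Ctrl signals beside the latter clones, and HDAC9 and THSD7A had lower ones. The ratios of such genes are not set against the same Ctrl level in both groups. The part of such genes in the window values was not tested. The Ctrl medians of whole windows are given further on. WT1 lay in a raised window, and CDH1 and PTPRC lay in lowered windows. In bulk RNA, fewer cells of a type and less RNA per cell cannot be told apart.

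Each probe is a DNA oligonucleotide of 60 bases. The first 30 bases, 5′ to 3′, are given for the probe of the first-ranked gene in each of the 6 most raised and the 6 most lowered windows, since these genes carry the largest differences of the windows. All letters are lower case because no part is singled out. The raised windows come first and the lowered windows follow.
DKK3, chr11:11984813-11984872, minus strand: gtgtgaaacatggttgtaatatgcgactgc
SRGAP2C, chr1:120833679-120833738, minus strand: gccagtgaatatgcatactgattctgaatg
CDKN2B, chr9:22004945-22005004, minus strand: aacataactagtggctctcagttaaaatgt
SGK1, chr6:134490656-134490715, minus strand: gtttttatggaccaatgccccagttgtcag
GPNMB, chr7:23314496-23314555, plus strand: accaggcatgatgctgagtgacactcttgt
CD44, chr11:35250934-35250993, plus strand: gggagctgggacacttaacagatgcaatgt
BRINP3-DT, chr1:190449585-190449644, plus strand: aatgctgctaagaggatctgaggttcacat
GPT2, chr16:46964768-46964827, plus strand: atttgctttcaaaataaataaggtcagcta
TNFRSF19, chr13:24249642-24249701, plus strand: tgctactgaatttggtaaatcctgggtaac
FAM27E2, chr9:46385659-46385718, minus strand: ataataataataaaatgaaacaatctgatt
PRAME, chr22:22890206-22890265, minus strand: tggggagatacatcttatagagttagaaat
KBTBD6, chr13:41704179-41704238, minus strand: ttgaaagcatatctttttcttcagaacaat
The coordinates are those of the whole probe. Exons, introns and UTRs of these probes are not given, since no hg19 annotation was used here.

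The shifted windows lay on 16 of 22 autosomes. Raised windows lay on 9 chromosomes and lowered windows on 10, with both kinds on 3. Chromosome 11 held 6 raised windows of 14 counted, chromosomes 6 and 20 held 2 each, and chromosomes 1, 2, 3, 5, 7 and 9 held 1 each. All 5 counted windows of chromosome 22 were lowered, as were 5 of 8 on chromosome 13. Chromosomes 4 and 9 held 3 lowered windows each, chromosomes 1, 8 and 16 held 2, and chromosomes 7, 10 and 19 held 1.

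**Figure D1:**
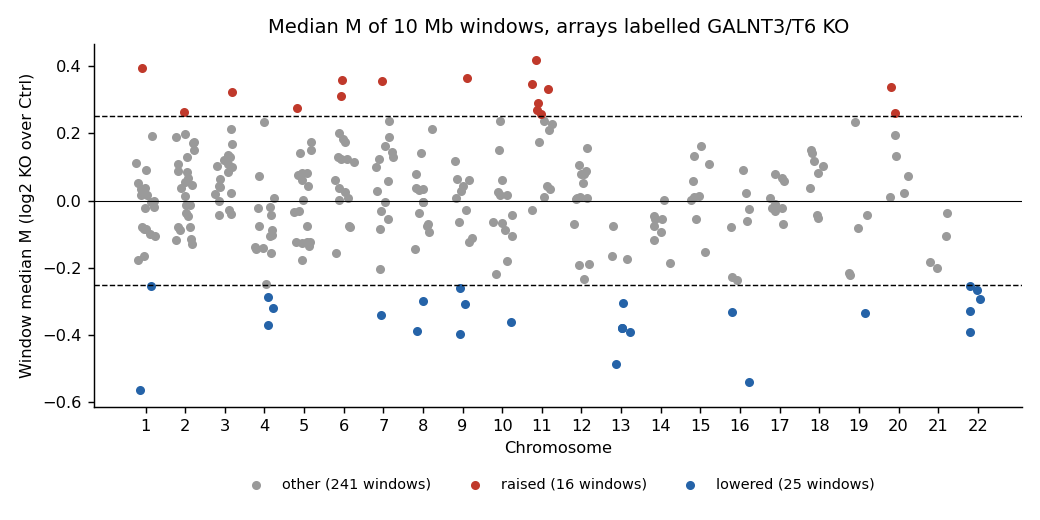
Median M (log2 KO over Ctrl, vertical axis) of the 282 counted windows by chromosome (horizontal axis, with sideways scatter that carries no meaning), on the arrays labelled GALNT3/T6 KO. Red points are the 16 raised windows, blue points the 25 lowered windows, and dashed lines mark 0.25 and -0.25. All 5 points of chromosome 22 are blue, and 6 red points stand on chromosome 11.

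Over whole chromosomes, 11 and 20 stood highest and 13 and 22 lowest on both arrays. Chromosome 11 had a median M of 0.23 over 2024 probes, with 0.21 and 0.26 on the 2 arrays. Chromosome 20 followed at 0.16, with 0.14 and 0.19. Chromosome 13 stood at -0.30, with -0.25 and -0.34, and chromosome 22 at -0.30, with -0.31 and -0.30. Chromosome 19 was at -0.14, with -0.14 and -0.13. The medians of the other 17 chromosomes lay between -0.12 and 0.10. Chromosome 14 was uneven between the clones, at -0.15 and -0.02, and so was chromosome 21, at -0.17 and -0.02. On the GALNT3 KO arrays, after loess normalization, the chromosome medians ran from -0.04 to 0.04.

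Within chromosome 11 the first 8 windows had median M values of 0.26, 0.42, 0.03, 0.35, 0.29, 0.23, 0.27 and 0.21, in order of position. The remaining 6 stood at 0.01, 0.33, 0.24, 0.18, 0.04 and -0.03. So most of the chromosome lay above 0, with single windows near 0 between raised ones. Chromosome 22 was even, with -0.29, -0.39, -0.25, -0.26 and -0.33 over its 5 windows. On chromosome 13 the 8 counted windows had values of -0.49, -0.07, -0.39, -0.38, -0.17, -0.38, -0.30 and -0.17, all below 0. Chromosome 9 held both kinds, with 0.37 in the window from 20000001 to 30000000 and -0.40 in the window from 40000001 to 50000000, and 0.01 in the window between them.

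Of the 41 shifted windows, 19 had a neighbouring window of the same kind. Among 12 neighbouring pairs of shifted windows, 11 were of the same kind. The exception was on chromosome 7, where the window from 10000001 to 20000000 was at -0.34 and the next one at 0.36. Counted neighbours of raised windows lay above 0 in 24 of 29 cases, beside 52.5% of all counted windows. Counted neighbours of lowered windows lay below 0 in 37 of 41 cases, beside 47.5% of all counted windows. Some of these neighbours are shifted windows themselves, so the rule fixed their sign, and such pairs are counted from both sides. Where the first and the last 5 Mb of a shifted window each held 20 or more probes, which was so for 26 windows, both pieces lay in the direction of the window in 25, and both passed 0.25 in 11. In the exception, chr1:140000001-150000000, the first 5 Mb were at 0.14 and the last at -0.33. The pieces make up windows that were chosen on these same values. The counts of this paragraph are therefore descriptions only.

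The 2 clones gave like values for most windows. All 41 windows had the same direction on both arrays. Both arrays were past the threshold together in 10 of the 16 raised and in 17 of the 25 lowered windows. The windows just inside the threshold were chr1:140000001-150000000 at -0.253, chr22:30000001-40000000 at -0.255, chr11:1-10000000 at 0.257 and chr20:30000001-40000000 at 0.261. Just outside were chr4:60000001-70000000 at -0.247, chr16:70000001-80000000 at -0.237, chr7:110000001-120000000 at 0.236 and chr10:60000001-70000000 at 0.235. A window of 10 Mb from position 1 can run past the end of its chromosome, as the last one of chromosome 22 does.

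The shift ran through the whole distribution of the probes of a window. In raised windows, 69.2% of the 2079 probes had an M above 0, and in single windows this share ran from 64.2% to 76.8%. In lowered windows, 67.2% of the 3001 probes had an M below 0, and the share above 0 ran from 24.5% to 41.4%. In the other windows, 50.3% of the probes lay above 0. The lower quartile, the median and the upper quartile were -0.11, 0.30 and 0.80 in raised windows. They were -0.99, -0.33 and 0.15 in lowered windows and -0.44, 0.00 and 0.40 in the others. The differences were largest in the outer parts, with 90th percentiles of 1.73 in raised and 0.96 in other windows, and 10th percentiles of -1.71 in lowered and -1.02 in other windows. The probes of the 3 kinds of window had the same median GC content, 43.3%.

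**Figure D2:**
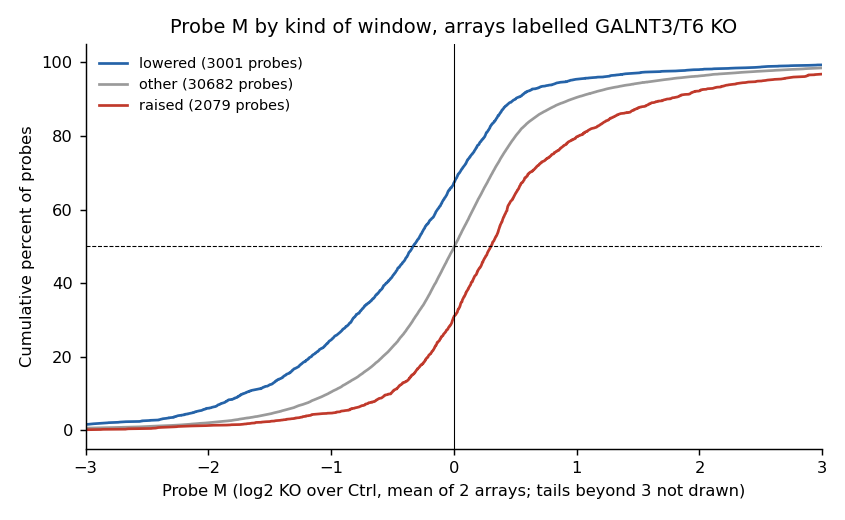
Cumulative percent of probes (vertical axis) by probe M (horizontal axis, log2 KO over Ctrl, mean of the 2 arrays labelled GALNT3/T6 KO) in raised, lowered and other windows. The curve of raised windows lies to the right of that of other windows and the curve of lowered windows to the left, with medians of 0.30, 0.00 and -0.33 where the dashed line marks 50%.

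Counted by genes, with each gene at its brightest probe and the ratios normalized by normexp and loess, both arrays labelled GALNT3/T6 KO lay above 0 for 917 of the 1517 genes of raised windows. That is 60.4%, beside 44.8% of all genes measured. Both arrays were at least 1.5-fold above Ctrl for 328 genes (21.6%, beside 11.6%) and at least 1.5-fold below for 81 genes (5.34%, beside 13.7%). In lowered windows both arrays lay below 0 for 1231 of 2131 genes, 57.8%, beside 39.9% of all. At least 1.5-fold below were 618 genes (29.0%, beside 13.7%) and at least 1.5-fold above were 132 genes (6.19%, beside 11.6%). So each kind of window also held genes that went the other way. The rule used this contrast, and nothing further is read from these shares.

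The channels were also read apart. The median log2 signal of the KO channel over the probes of raised windows was 9.52 and 9.57 in GALNT3 KO, and 9.98 and 9.99 in the clones labelled GALNT3/T6 KO. The Ctrl channel stood at 9.57 and 9.58, and at 9.61 and 9.56. In lowered windows the KO channel was at 9.64 and 9.64, and at 9.18 and 9.19, while the Ctrl channel was at 9.70 and 9.69, and at 9.60 and 9.58. In the lowered windows both channels were thus dimmer beside the GALNT3/T6 KO label, the KO channel by more than the Ctrl channel. The KO values of these clones are part of what chose the windows. In the other windows the KO channel was at 9.53 and 9.54, and at 9.52 and 9.55. Window by window, the KO channel of the arrays labelled GALNT3/T6 KO differed from that of the GALNT3 KO arrays by a median of 0.13 in raised, -0.38 in lowered and -0.10 in other windows. The Ctrl channel differed by -0.06, -0.08 and -0.07. In single raised windows the Ctrl channel moved more than the KO channel, as in chr9:20000001-30000000, where the KO channel differed by 0.011 and the Ctrl channel by -0.10.

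M also went with the brightness of the probes. All probes were put into 3 classes of equal size by their Ctrl signal on the GALNT3 KO arrays, which the rule did not use. In lowered windows the median M was -0.13 for dim, -0.20 for middle and -0.83 for bright probes. The bright probes read -0.93 and -0.75 on the 2 arrays. In raised windows the classes stood at 0.16, 0.35 and 0.40. In the other windows they were at 0.02, 0.08 and -0.15, so bright probes lay below 0 there too. In every class the raised windows lay above and the lowered windows below the other windows, on both arrays. M on these same arrays chose the windows, so this order is a description only.

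The most raised window was chr11:10000001-20000000, with 131 probes and a median M of 0.42 (0.42 and 0.41 on the 2 arrays). Its leading gene was DKK3, a secreted modulator of Wnt signalling, with log2 ratios of 5.27 and 5.20. The mean over the 5 probes of DKK3 was 2.71, so its probes differed. On the same arrays, means over all probes also lay nearer 0 for CDKN2B (2.25), CDKN2A (2.65), GPNMB (3.83), CRB1 (-3.08) and GPT2 (-1.42). The same held for TNFRSF19 (-2.79), FAM27E2 (-2.76), PRAME (-3.10) and TSC22D1 (-1.96), all named below at their brightest probe. ADM, the vasodilator peptide adrenomedullin, read 3.98 and 4.48. On the GALNT3 KO arrays DKK3 was at -1.29 and -1.33 (mean -1.31, standard error 0.08, adjusted p = 0.0086 from limma), below Ctrl, while the other arrays stood above it. That call was lost with the mean of its probes, at -0.37. Like every call of a single gene in GALNT3 KO given here, it was also lost without either GALNT3 KO array (highest adjusted p = 0.37 for DKK3). ADM read -0.17 and 0.16 there.

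The window chr1:120000001-130000000 had a median M of 0.39, from only 29 probes, with 0.14 and 0.35 on the 2 arrays. SRGAP2C, a human-specific copy of SRGAP2, read 1.03 and 1.12. A probe cannot tell such near-identical copies apart with certainty, so its value is uncertain. NOTCH2, a receptor for Notch ligands, read 0.47 and 1.38, while the GALNT3 KO arrays read 0.42 and -0.27. The arrays of each group differed widely for NOTCH2, and the lowest value of the first group lay just above the highest of the second.

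The window chr9:20000001-30000000 was at 0.37 (0.33 and 0.31) over 53 probes and holds both CDK4/6 inhibitors of the INK4 locus. CDKN2B, which encodes p15, read 2.60 and 3.17 in the clones labelled GALNT3/T6 KO, and 0.54 and 0.34 in GALNT3 KO. CDKN2A, which encodes p16 and ARF, read 2.85 and 2.92 in the former and 2.43 and 2.39 in the latter. In GALNT3 KO, CDKN2A was higher than Ctrl (mean 2.41, standard error 0.08, adjusted p = 0.0047 from limma). CDKN2A was thus high on all 4 arrays and CDKN2B mainly on the 2 labelled GALNT3/T6 KO. A family of interferon genes lies in the same window, and the 6 measured IFNA genes had a median log2 ratio of 0.02 there.

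The window chr6:130000001-140000000 stood at 0.36 (0.39 and 0.32). SGK1, a kinase induced by serum and glucocorticoids, read 5.27 and 6.41, and the GALNT3 KO arrays read 0.55 and 0.65. PERP, a membrane protein of desmosomes and a target of p53, read 4.46 and 4.42, and in GALNT3 KO 0.70 and 0.82 (adjusted p = 0.0218 from limma). The adjacent window, chr6:120000001-130000000, was raised as well, at 0.31.

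The window chr7:20000001-30000000 stood at 0.36 (0.34 and 0.34) and holds the HOXA cluster. GPNMB, a transmembrane glycoprotein, read 4.59 and 5.34. HOXA4, a homeobox transcription factor, read 4.25 and 4.47, and 0.22 and 0.07 on the GALNT3 KO arrays. Of 42 HOX genes measured, 12 lay in raised windows, with a median log2 ratio of 0.57, and 0 in lowered windows. Of all 27198 genes measured, 1517 lay in raised windows, with a median of 0.24.

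The window chr11:30000001-40000000 was at 0.35 (0.37 and 0.36). CD44, the receptor for hyaluronan, read 5.24 and 5.67, and 0.07 and 0.02 on the GALNT3 KO arrays. A transcript known only as AK095453 read 1.86 and 2.10. Both were near 0 in GALNT3 KO.

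**Figure D3:**
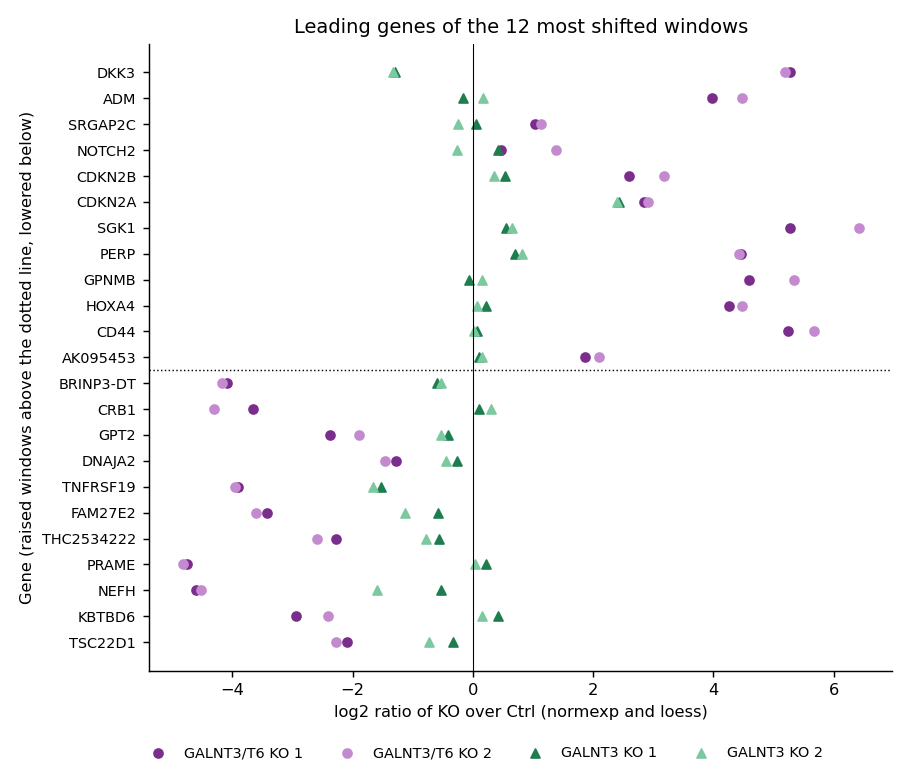
log2 ratio of KO over Ctrl (horizontal axis) on each of the 4 arrays for the leading genes named in the text (vertical axis) of the 6 most raised (above the dotted line) and 6 most lowered windows. Circles are the arrays labelled GALNT3/T6 KO, by which the genes were chosen, and triangles the GALNT3 KO arrays. CDKN2A is high on all 4 arrays, from 2.39 to 2.92, and DKK3 has triangles at -1.29 and -1.33.

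The most lowered window was chr1:190000001-200000000, with a median M of -0.56 over 53 probes (-0.62 and -0.60). BRINP3-DT, a non-coding transcript, read -4.09 and -4.17, and CRB1, a regulator of apical polarity, read -3.66 and -4.30. BRINP3-DT was also lower than Ctrl in GALNT3 KO, at -0.60 and -0.53 (adjusted p = 0.0312 from limma), a call lost with Agilent's log ratio. CRB1 read 0.11 and 0.31 there.

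The window chr16:40000001-50000000 stood at -0.54 over 32 probes, with -0.60 and -0.39 on the 2 arrays, and is the lowered window with the fewest probes. GPT2, a mitochondrial alanine aminotransferase, read -2.37 and -1.90. DNAJA2, a co-chaperone of HSP70, read -1.27 and -1.46. On the GALNT3 KO arrays GPT2 was at -0.41 and -0.53 and DNAJA2 at -0.27 and -0.45, neither past the threshold.

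The window chr13:20000001-30000000 stood at -0.49 (-0.39 and -0.53) over 124 probes. TNFRSF19, a receptor of the TNF receptor superfamily, read -3.90 and -3.96, and was lower than Ctrl in GALNT3 KO too, at -1.52 and -1.66 (mean -1.59, standard error 0.08, adjusted p = 0.0065 from limma). The first 5 Mb of the window, at -0.76, lay further from 0 than the last, at -0.14.

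The window chr9:40000001-50000000 stood at -0.40 (-0.27 and -0.45). FAM27E2 read -3.43 and -3.60, and the transcript THC2534222 read -2.29 and -2.59. FAM27E2 belongs to a family of near-identical copies, so its value is uncertain. Both were also lower than Ctrl in GALNT3 KO, at -0.86 (adjusted p = 0.042) and -0.67 (adjusted p = 0.0391 from limma), and both calls were lost with Agilent's log ratio.

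The window chr22:20000001-30000000 stood at -0.39 (-0.41 and -0.38) over 262 probes. PRAME, a cancer testis antigen, read -4.76 and -4.83, and 0.22 and 0.03 in GALNT3 KO. NEFH, the heavy neurofilament protein, read -4.60 and -4.52, and -0.53 and -1.59 in GALNT3 KO, where the 2 clones differed by more than a log2 unit. The window chr13:40000001-50000000 was at -0.39 (-0.33 and -0.47). KBTBD6, a substrate adaptor of a CUL3 ubiquitin ligase, read -2.94 and -2.41, and TSC22D1, a regulator of transcription induced by TGF-beta, read -2.09 and -2.27.

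The GALNT3 KO arrays were not used to choose the windows and give the test. In GALNT3 KO, 14 of the 16 raised and 22 of the 25 lowered windows lay within 0.1 of 0, beside 231 of the 241 other windows. Both arrays were above 0 in 10 raised and 8 lowered windows, and below 0 in 2 raised and 13 lowered windows. Of the 241 other windows, both arrays were above 0 in 89 and below 0 in 99. Over the 16 raised windows the median of the window medians was 0.012 and 0.035 on the 2 arrays, with single windows (mean of both arrays) from -0.05 to 0.14. Over the 25 lowered windows it was -0.0034 and -0.035, with single windows from -0.13 to 0.12. After the same normalization, the clones labelled GALNT3/T6 KO stood at medians of 0.25 and -0.26 over these windows. limma, fitted on the 282 window medians, called 0 of the 41 shifted windows in GALNT3 KO at an adjusted p of at most 0.05 (lowest adjusted p = 0.082), beside 0.355% of all counted windows. Without adjustment 11 of the 41 windows, 26.8%, had a p of at most 0.05, beside 24.8% of all counted windows. Of these, 4 raised windows were above Ctrl and 0 below, and 2 lowered windows were above and 5 below. Among the 241 other windows, 28 were above and 31 below at this unadjusted p. Without either array labelled GALNT3/T6 KO, which leaves the spread to the GALNT3 KO arrays, 11 of the 41 were called, together with 72 of all 282. Among the 11 were 4 raised windows above Ctrl and 6 lowered windows below it. The single window called with all 4 arrays, chr9:60000001-70000000, at 0.17 (standard error 0.02, adjusted p = 0.0491), was not a shifted one. Sign changes over 2 arrays cannot give an exact two-sided p below 0.5, so the medians over the windows have no test.

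**Figure D4:**
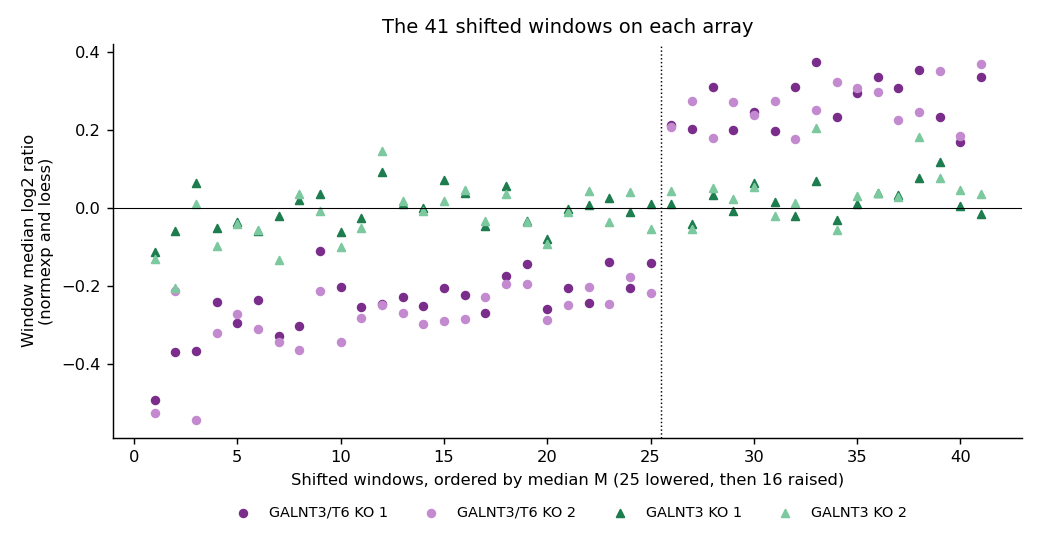
Median log2 ratio (vertical axis, after normexp and loess) of the 41 shifted windows on each of the 4 arrays, with the windows ordered by median M (horizontal axis, 25 lowered to the left of the dotted line and 16 raised to the right). Circles are the arrays labelled GALNT3/T6 KO, by which the windows were chosen, and triangles the GALNT3 KO arrays. The triangles lie between -0.21 and 0.20.

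Applied to the GALNT3 KO arrays, the same rule found 0 windows of 283. Their median M ran from -0.16 to 0.24, with an SD over windows of 0.068, against 0.169 on the arrays labelled GALNT3/T6 KO. It is not stated in the labels whether both groups were set against 1 Ctrl clone, so the values are given side by side and no relation between them is tested. The window on chromosome 1 from 190000001 was among the lower ones in GALNT3 KO as well, at -0.11 and -0.13 (adjusted p = 0.082 from limma). The window on chromosome 7 from 10000001 lay the other way there, at 0.09 and 0.15 (adjusted p = 0.082), while the clones labelled GALNT3/T6 KO read -0.25 and -0.25.

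The shares of genes called in GALNT3 KO lay near those of all genes. In raised windows 80 of 1517 genes were higher than Ctrl, 5.27%, beside 4.76% of all genes, and 84 were lower, 5.54%, beside 6.39%. In lowered windows 94 of 2131 genes were higher, 4.41%, and 161 were lower, 7.56%, beside the same 4.76% and 6.39%. These calls rest on both arrays. Without GALNT3 KO replicate 1, and equally without replicate 2, limma called 0 genes in any window (lowest adjusted p = 0.281 and 0.337), with 4694 and 3252 of 27198 genes at an unadjusted p of at most 0.05. Without either array labelled GALNT3/T6 KO, 272 genes of raised windows were higher and 246 lower, and 318 of lowered windows were higher and 422 lower, beside 16.8% higher and 17.8% lower of all genes. The p-values measure the spread between clones, and leave out that of Ctrl.

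Among the genes of shifted windows called higher in GALNT3 KO, the 5 largest were HDAC9, THSD7A, FOLH1, RGS18 and ARL6. HDAC9, a class IIa histone deacetylase in a lowered window of chromosome 7, read 5.03 and 4.32 (mean 4.68, standard error 0.18, adjusted p = 0.0054 from limma). The mean over its 6 probes was 1.46. The same probe read 0.01 in both clones labelled GALNT3/T6 KO. Its Ctrl log2 signals were 10.88 and 11.81 beside GALNT3 KO, and 8.74 and 8.79 beside those clones. THSD7A, a membrane protein with thrombospondin repeats, lies in the same window and read 3.39 and 3.40, against -0.72 and -1.06 on the other 2 arrays. FOLH1, the folate hydrolase known as prostate-specific membrane antigen, lies in a raised window of chromosome 11 and read 2.96 and 2.96, against -2.13 and -2.26. Over all their probes, the means in GALNT3 KO were 2.55 for THSD7A and 2.23 for FOLH1. RGS18, a regulator of G protein signalling in the most lowered window, read 2.93 and 2.81, against -0.61 and -1.02. ARL6, a small GTPase of the Bardet-Biedl proteins in a raised window of chromosome 3, read 2.81 and 2.66, against 0.80 and 0.25. THSD7A, FOLH1 and RGS18 thus lay above Ctrl in GALNT3 KO and below it on the other arrays. On those other arrays THSD7A was dim, with KO log2 signals of 6.89 and 6.71 and 3 of 4 channels well above background. Its reading below Ctrl is therefore uncertain.

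Among those called lower in GALNT3 KO, the 5 largest were ZNF462, PREX1, TBX1, CFHR3 and SPP1. ZNF462, a zinc finger protein in a lowered window of chromosome 9, read -4.28 and -3.52 (mean -3.90, standard error 0.30, adjusted p = 0.0128 from limma), with a mean of -2.10 over its 2 probes, against -1.45 and -0.43 on the other 2 arrays. PREX1, an activator of Rac in a raised window of chromosome 20, read -2.67 and -3.15, against 0.97 and 1.60 in the clones labelled GALNT3/T6 KO. TBX1, a T-box transcription factor in a lowered window of chromosome 22, read -2.58 and -2.55, against -4.51 and -4.74. CFHR3, a protein related to complement factor H in the most lowered window, read -2.21 and -2.50, against -3.03 and -3.04. SPP1, the secreted protein osteopontin in a lowered window of chromosome 4, read -1.91 and -1.80, against -1.60 and -1.50. ZNF462, TBX1, CFHR3 and SPP1 lay below Ctrl on all 4 arrays, while PREX1 lay on opposite sides of it in the 2 groups.

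A list of 35 genes in segments often gained in high-grade serous ovarian carcinoma had 32 members measured. Of these, 2 lay in raised windows and 1 in a lowered window, beside 1517 and 2131 of all 27198 genes measured. CCND1, which encodes cyclin D1, read 0.11 and 0.78 in the clones labelled GALNT3/T6 KO, and its mean over 3 probes was 0.08. BCL2L1, which encodes the survival protein BCL-XL, read 0.49 and 0.40. AKT2, a kinase of the PI3K pathway in the lowered window of chromosome 19, read -1.90 and -1.28, while GALNT3 KO read 0.24 and -0.15. The mean over the 3 probes of AKT2 was -1.11 in the clones labelled GALNT3/T6 KO. None of the 3 was called in GALNT3 KO by limma (adjusted p from 0.0796 to 0.876).

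Of 28 tumor suppressors in segments often lost or disrupted, 27 were measured, with 3 in raised windows and 1 in a lowered one. Over all 27198 genes measured, 1517 lay in raised and 2131 in lowered windows. CDKN2A and CDKN2B have been described. LRP1B, a large receptor of the LDL receptor family, lies in a raised window of chromosome 2 but read -0.29 and -0.43. RB1, the retinoblastoma protein gene, lies in the lowered window chr13:40000001-50000000 and read -1.07 and -0.72, with -0.66 and -0.98 on the GALNT3 KO arrays. In GALNT3 KO, RB1 was lower than Ctrl (mean -0.82, standard error 0.14, adjusted p = 0.0368 from limma), but the mean over its 2 probes was -0.36, and the call was lost with it. It was also lost with Agilent's log ratio and with the deposited values, at -0.79 in each.

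Genes of the housekeeping machinery, which serve the proteasome, RNA polymerase II, translation initiation, folding and transport in every cell, were followed by location. Of 91 listed genes 89 were measured. The 9 in raised windows had a median log2 ratio of 0.53 in the clones labelled GALNT3/T6 KO, from -0.02 to 1.34, with both arrays above 0 for 6 and below 0 for 1. The 5 in lowered windows had a median of -0.76, from -1.27 to -0.59, with both arrays below 0 for all 5. These medians stand beside 0.24 and -0.19 over the 1517 and 2131 genes of raised and lowered windows, of 27198 measured. Both arrays lay above 0 for 60.4% of these genes in raised windows and below 0 for 57.8% in lowered windows. The rule used these arrays, so the values are a description only. Brightness was not matched, and bright probes of lowered windows had a median M of -0.83. The 73 in other windows had a median of -0.37, with both arrays above 0 for 16 and below 0 for 44. COPB1, a subunit of the COPI coat on chromosome 11, read 0.15 and 1.17. ATP5F1C, a subunit of the mitochondrial ATP synthase on chromosome 10, read -0.35 and -1.16. POLR2G, a subunit of RNA polymerase II, was the 1 of the 9 below 0 on both arrays, at -0.01 on each. In GALNT3 KO the medians were 0.11 for the 9 and 0.25 for the 5. PSMA1, a proteasome subunit in a raised window, was called lower there, at -0.63 and -0.65 (adjusted p = 0.0419 from limma). EIF3L, a translation initiation factor subunit in a lowered window, was called higher, at 0.66 and 0.70 (adjusted p = 0.0459). Both genes were named after their values were seen.

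Gene families that lie in clusters were counted by the start of their symbols. Of all 27198 genes measured, 1517 lay in raised and 2131 in lowered windows. A family in 1 cluster falls into few windows together, so its counts describe location. All 10 measured CEACAM genes, cell adhesion molecules on chromosome 19, lay in lowered windows, with a median log2 ratio of 0.0009. Of 493 zinc finger genes named ZNF, 38 lay in lowered windows, with a median of -0.76, and 12 in raised windows, with a median of 0.03. Of 123 olfactory receptor genes, 23 lay in raised windows, with a median of 0.30. Of 62 histone genes 7 lay in lowered windows, at a median of -0.26, and of 48 protocadherin genes 2, at -1.35. The median over all 2131 genes of lowered windows was -0.19. The families HLA-, S100A, CCL, KLK, MT1, GSTM, UGT and LCE had 0 members in shifted windows. So the median of a family could stay near 0 inside a shifted window. The brightness of the probes of these families was not compared. In lowered windows dim probes had a median M of -0.13 and bright ones of -0.83, so dim families would read nearer 0.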

How the data were processed

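The labels gave 4 two-colour Agilent arrays of the A2780s cell line, 2 for GALNT3 KO and 2 for GALNT3/T6 KO, each against Ctrl. The authors extracted spot intensities with Agilent Feature Extraction, version 10.7.3.1 in the file headers and 8.5.1.1 in the submitters' processing notes. The deposited intensity values (mean signal, median background) were not normalized. The deposited value table held the log10 ratio of Cy5 over Cy3 of the same spots, within rounding, so its scale and direction are known. Its centring is that of Agilent's own log ratio.

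The windows follow the rule in the report, with spots of a probe averaged. The members, lists and tests were chosen with earlier results of these data known. For tests, backgrounds were corrected with normexp (offset 50), dyes normalized by loess within arrays with control spots at weight 0, and spots flagged as non-uniform left out (limma 3.58.1). Probes that passed Agilent's background test on both arrays of a group were kept, and the brightest one stood for its gene. limma fitted all 4 arrays with a mean for each group, over 282 windows or 27198 genes, with Benjamini-Hochberg adjustment and calls at 0.05. The fits were tested on simulated data. Channel values came after loess and Aquantile. The RefSeq table (GRCh38.p14) gave current symbols for 17582 of the genes, and no coordinates. The named genes are the 2 largest in the direction of each of the 6 most raised and 6 most lowered windows, the 5 largest calls each way in GALNT3 KO, members of 3 lists in shifted windows (at most 4 of the housekeeping list) and both targets. A gene that this rule selects is not reported here. All 4 arrays lay on 1 slide with 1 scan time, so no batch could be tested. The number of arrays limits the precision.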

Additional observations from a re-analysis of the deposited data

Results flagged for a closer look

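A window or gene is given here where both GALNT3 KO arrays lay on one side of 0 and both arrays labelled GALNT3/T6 KO on the other. The difference itself was not tested, and the arrays labelled GALNT3/T6 KO chose the windows. Groups of 2 arrays are too small to look for single arrays that stand apart.

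Among the shifted windows, 10 met this. Of the raised windows, the median of GALNT3/T6 KO minus that of GALNT3 KO was 0.32 for the window from 90000001 on chromosome 11 and 0.29 for that from 30000001 on chromosome 20. Of the lowered windows it was -0.49, -0.36 and -0.23 for those from 20000001, 50000001 and 100000001 on chromosome 13. It was -0.37 for the one from 10000001 on chromosome 7, -0.295 for the one from 90000001 on chromosome 4 and -0.26 for the one from 40000001 on chromosome 19. On chromosome 22 it was -0.25 from 40000001 and -0.29 from 50000001.

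Among the named genes, 11 met it. Higher in the clones labelled GALNT3/T6 KO were DKK3 by 6.54, PREX1 by 4.19 and COPB1 by 0.94 on the log2 scale. Lower there were FOLH1 (-5.16), PRAME (-4.92), THSD7A (-4.28), CRB1 (-4.19), RGS18 (-3.69), KBTBD6 (-2.96), EIF3L (-1.81) and POLR2G (-0.32). THSD7A was dim in the clones labelled GALNT3/T6 KO.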

How the results depend on the processing

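The number of raised windows, 16, moved to 9 with normexp and loess, 5 with Agilent's log ratio centred on the median, 26 at a threshold of 0.2, 10 at 0.3, 25 when centred on all probes and 49 with windows of 5 Mb. The number of lowered windows, 25, moved to 15 with normexp and loess, 15 with 1 probe per gene and 56 with windows of 5 Mb. Other settings kept both counts within 1.5 times, among them centring on the median over spots, chosen after the data were seen. Called in GALNT3 KO, the count of shifted windows was 1 with Agilent's log ratio and with the deposited table, and 11 with the GALNT3 KO arrays alone. It ran from 0 to 11 with 1 array left out.

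For genes called in GALNT3 KO, counts are given in the order raised windows higher and lower, lowered windows higher and lower. Agilent's log ratio gave 21, 15, 15 and 42, the deposited values gave 20, 15, 15 and 42, and the GALNT3 KO arrays alone 272, 246, 318 and 422. With 1 array left out they ran from 0 to 272, 0 to 246, 0 to 318 and 0 to 422, the lone array of a group being assumed to vary like the others. The methods' t-test gave 0 in each after adjustment, and unadjusted 129 and 148 genes higher. At an unadjusted p and 1.5-fold, 59 genes of lowered windows were higher. With the replicate number as a block the counts fell to 4, 1, 5 and 7, and 0 shifted windows were called (8 at an unadjusted p). The calls of DKK3, PERP, PREX1, RB1, BRINP3-DT, FAM27E2, THC2534222 and GALNT6 were lost with it. Those of PSMA1 and EIF3L were not followed singly over the settings. The labels do not say that a number pairs clones across groups. Deviations of same-numbered clones correlated at -0.24 over genes, and the crossed pairing, added after the data were seen, gave 88, 118, 106 and 204 genes.

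The median in raised windows of GALNT3 KO, 0.025, moved to 0.051 with Agilent's log ratio and 0.051 with the deposited table, and ran from 0.012 to 0.035 with 1 array left out. In lowered windows it was -0.0077 and ran from -0.035 to -0.0034, with 0.013 from Agilent's log ratio and 0.008 with 1 probe per gene on the other side of 0. The cause of these moves was not tested. No block for slide or scan could be fitted, since there was 1 of each. Signal over background limits the ratios of dim probes, which the offset draws towards 0.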
